A study of Mus musculus with 57 samples.

Results

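The regions described here were bound by GATA6 within 2 h of its induction in mouse ES cells, held no NANOG or SOX2 peak before induction, and held a NANOG peak at 2 h. They were chosen by 4 conditions on the peak lists: a merged GATA6 2 h region with a peak of both GATA6 2 h lists, no overlap of even 1 bp with any NANOG 0 h or SOX2 0 h peak, and a peak in both NANOG 2 h lists. Of 44776 GATA6 2 h regions, 25853 held no 0 h peak of either factor, and 5551 of these met every condition. That was 12.4% of all GATA6 2 h regions and 21.5% of those without a 0 h peak. They also made up 33.8% of the 16414 GATA6 2 h regions that held NANOG in both 2 h lists. These 5551 are called NANOG-gaining regions below, a name for the rule and not for a measured rate of binding. The absence of a peak at 0 h is a missing call, which does not show that the factor was absent.

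The data were CUT&RUN peak lists, which mark where an antibody-guided nuclease released DNA fragments around a chromatin factor. The cells were KH2 ES cells (C57BL/6 in the labels) with a single-copy, doxycycline-inducible TRE transgene that encodes FLAG-tagged GATA6 together with DsRed2, and the uninduced 0 h cells carried the same transgene. NANOG, SOX2 and GATA6 were profiled at 0, 2, 4 and 8 h, GATA6 additionally at 48 h, GATA4 at 24 h and SOX17 at 24 h, with 2 lists in each of these 15 groups. The 0 h cells were kept in 2i maintenance medium and induction took place in serum medium, with Dox withdrawn before the 24 and 48 h points, so Dox, medium and elapsed time cannot be told apart in any comparison with 0 h. A single engineered line was used, in which GATA6 was induced from the transgene. Of the GATA6 lists, 6 at 4, 8 and 48 h carry peak names of another time than their sample record, and the times used here follow the names. The study states that replicate experiments were run independently, and no source used here says that the 2 lists of a group came from separate cultures. Where p-values below compare kinds of region, they pool lists of several factors and times, and the 2 lists of a group may not be independent. Where they compare times, they set the times against the spread between the 2 lists of a time, which may be technical.

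GATA6 is a zinc-finger transcription factor that drives the primitive endoderm (PrE) fate in the inner cell mass of the blastocyst. NANOG and SOX2 are homeodomain and HMG-box factors of the pluripotent epiblast (Epi), the alternative fate and the one that ES cells are closest to. GATA4 and SOX17 are PrE factors that act after GATA6, and SOX17 shares its DNA-binding domain type with SOX2.

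The sequences below show the DNA under the strongest NANOG signals gained at 2 h, so that the words it holds can be read beside the values. They are the 8 NANOG-gaining regions with the highest NANOG 2 h fold enrichment (peak signal over local background as MACS scored it, averaged over both lists), apart from a chromosome named with the methods. Each is 121 bases about the NANOG summit of replicate 1, on the plus strand of GRCm38 (mm10). Capitals mark GATA words, defined as the word AGATAA, the word AGATAG, the word TGATAA and the word TGATAG on either strand. Word counts given for these 8 regions are those of the printed stretch, not of the whole region.
chr5:118458698-118458818: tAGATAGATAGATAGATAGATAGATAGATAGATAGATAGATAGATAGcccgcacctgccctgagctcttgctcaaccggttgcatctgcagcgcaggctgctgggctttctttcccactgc
chr4:83567418-83567538: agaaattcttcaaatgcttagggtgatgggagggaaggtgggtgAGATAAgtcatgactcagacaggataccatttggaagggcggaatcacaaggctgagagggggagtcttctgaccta
chr13:28724684-28724804: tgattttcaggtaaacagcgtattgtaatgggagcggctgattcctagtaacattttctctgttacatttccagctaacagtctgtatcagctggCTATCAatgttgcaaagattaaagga
chr9:23538166-23538286: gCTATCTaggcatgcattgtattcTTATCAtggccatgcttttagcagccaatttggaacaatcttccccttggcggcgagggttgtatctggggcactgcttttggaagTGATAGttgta
chr16:93424766-93424886: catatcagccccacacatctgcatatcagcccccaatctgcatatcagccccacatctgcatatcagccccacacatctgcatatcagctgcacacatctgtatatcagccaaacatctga
chr2:132634651-132634771: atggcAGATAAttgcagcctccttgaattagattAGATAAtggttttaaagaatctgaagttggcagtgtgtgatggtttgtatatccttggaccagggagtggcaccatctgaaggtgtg
chr6:82800414-82800534: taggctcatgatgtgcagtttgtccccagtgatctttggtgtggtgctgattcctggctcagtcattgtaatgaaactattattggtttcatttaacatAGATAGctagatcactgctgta
chr14:65900769-65900889: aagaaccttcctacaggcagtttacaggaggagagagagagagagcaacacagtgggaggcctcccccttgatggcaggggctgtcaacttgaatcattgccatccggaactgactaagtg

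The first of these lay in an intergenic region, chr5:118457951-118460009, 101841 bp from the nearest protein-coding start, that of Med13l. NANOG stood at 37.2-fold and 29.7-fold over background there at 2 h, and GATA6 at 144-fold and 120-fold. Its 11 GATA words form a tandem repeat, and of the 8 it held the most words. NANOG was listed at 13.4-fold and 14.0-fold at 4 h and in 1 of the 8 h lists, at 5.65-fold. SOX2 stood at 21.4-fold and 29.0-fold at 2 h and at 14.7-fold and 13.9-fold at 8 h, while no GATA6 48 h, GATA4 or SOX17 list held a peak.

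The next 3 had NANOG 2 h folds of 37.2 and 19.3 in an intron of Ccdc171 (chr4:83566913-83568376), 35.1 and 20.0 in an intron of the noncoding transcript 2610307P16Rik (chr13:28724126-28725097), and 24.6 and 27.4 in an intergenic region 315150 bp from Bmper (chr9:23537713-23538879). All 3 held SOX2 in both lists at 2, 4 and 8 h, and none held GATA6 at 48 h, GATA4 or SOX17. The Ccdc171 region carries 1 GATA word next to 1 AP-1 word (TGANTCA), and the chr13 region carries 1 TAATGG, the core word of many homeodomain factors, beside 1 GATA word. In the chr13 region the SOX2 2 h folds, at 20.7 and 49.5, were on average above its NANOG folds, whereas in the Bmper region they were lower, at 6.72 and 14.8.

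The chr16 region, in an intron of the lincRNA 1700029J03Rik (chr16:93423015-93425480), held no GATA word in the printed stretch, which is a tandem repeat, and had NANOG at 35.4-fold and 13.9-fold. The sixth, in an intron of the lincRNA AU019990 (chr2:132633939-132635207), had 2 GATA words, NANOG at 28.1-fold and 20.2-fold at 2 h, and SOX17 in both lists at 7.61-fold and 15.3-fold. The seventh, 25996 bp from the Hk2 start (chr6:82800001-82801078), had 1 GATA word and NANOG at 32.8-fold and 15.2-fold. There GATA6 stood at 50.5-fold and 42.5-fold at 2 h, 62.2-fold and 87.1-fold at 4 h, and 69.7-fold and 79.8-fold at 8 h, so both lists of 4 h and of 8 h were above those of 2 h. At 48 h it was in 1 list, at 6.39-fold. Hk2 encodes a hexokinase of glycolysis.

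The eighth, 53241 bp from Scara3 (chr14:65899821-65901175), carried 1 AP-1 word and no GATA word in the printed stretch, and every list after induction held a peak. NANOG stood at 30.5-fold and 17.3-fold at 2 h, 10.1-fold and 9.27-fold at 4 h, and 6.53-fold and 5.97-fold at 8 h. GATA6 was listed at 7.19-fold and 4.89-fold at 48 h, GATA4 at 8.68-fold and 8.04-fold, and SOX17 at 8.41-fold and 10.0-fold. Both replicates gave lower NANOG folds at each later time in this region. The 8 regions were picked for their high NANOG 2 h folds, so lower NANOG folds at later times carry that choice.

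The next 3 sequences are shown because they have the highest NANOG 2 h folds, with the Scara3 region, among the NANOG-gaining regions with peaks in both lists of GATA6 at 48 h, GATA4 and SOX17.
chr14:105802730-105802850: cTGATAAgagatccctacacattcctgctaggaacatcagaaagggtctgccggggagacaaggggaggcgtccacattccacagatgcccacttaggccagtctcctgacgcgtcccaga
chr12:104888169-104888289: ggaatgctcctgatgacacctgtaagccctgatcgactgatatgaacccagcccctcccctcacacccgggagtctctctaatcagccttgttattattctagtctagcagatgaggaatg
chr2:72475631-72475751: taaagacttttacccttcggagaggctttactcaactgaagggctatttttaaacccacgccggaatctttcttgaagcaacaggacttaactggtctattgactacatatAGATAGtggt

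The region with the first of these, chr14:105801845-105804304, was intergenic, and its nearest start, 93989 bp away, was that of Spry2, an inhibitor of FGF-receptor signalling. GATA6 stood at 129-fold and 97.6-fold at 2 h and still at 17.1-fold and 34.3-fold at 48 h, beside GATA4 at 14.7-fold and 13.4-fold. The second, chr12:104888036-104888930, was 23227 bp from Clmn, with GATA4 at 25.2-fold and 21.2-fold and NANOG 2 h folds of 28.5 and 9.77. The third, chr2:72475261-72477217, was in the Cdca7 promoter, 472 bp from the start, with NANOG at 24.6-fold and 13.1-fold. NANOG was in both 8 h lists in the chr14 and chr12 regions and in 1 of them at Cdca7.

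Values at the edge of the rule were as follows, in −log10 q of the NANOG 2 h lists. The 3 members nearest the threshold had 1.35 and 3.77 in replicates 1 and 2 (chr13:99098545-99099617), 10.8 and 1.37 (chr17:70837544-70839107), and 3.44 and 1.38 (chr19:30526351-30527899). Just outside were regions with a peak in 1 NANOG list only, and the 3 strongest reached 62.8 (chr5:43982058-43982486), 43.3 and 42.7 (chr5:26643188-26644087), all in replicate 1. There were 7308 such regions, 6406 from replicate 1 and 902 from replicate 2, and the lists behind them were of unequal length, with 52285 and 26742 peaks. Membership therefore turned mainly on the shorter list.

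The peak lists differed in length across groups as well. NANOG had 10693 and 16180 peaks at 0 h, 14911 and 14528 at 4 h and 5510 and 2255 at 8 h, and SOX2 had between 11540 (8 h) and 52574 (2 h). GATA6 had 86 and 882 at 0 h, 79358 and 62683 at 2 h and 5933 and 9767 at 48 h, GATA4 had 8427 and 4006, and SOX17 had 27328 and 41979. Background coverage, estimated from the pairs of fold and p in the lists, was 0.86 to 1.31 fragments per base for NANOG, 0.29 to 0.69 for SOX2, 0.93 to 1.34 for induced GATA6 and 1.23 to 1.55 for SOX17, and the GATA4 estimates, 0.17 and 0.87, rest on only 1 and 4 such pairs. A share of regions with a peak moves with the length of its list, so the tests between classes of region were made within the same list, and values set side by side across times also carry the difference in list length.

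As comparison, 3 classes were used. Bare regions, 12994 in number, held no peak of any NANOG 0 h, SOX2 0 h or NANOG 2 h list. The regions with a NANOG 2 h peak in 1 list only stood between, and pre-occupied regions, 4968 in number, held NANOG and SOX2 in both 0 h lists of each. NANOG-gaining regions were wider than bare ones, with medians of 838 and 508 bp against 1011 bp for pre-occupied regions, and their GATA6 2 h fold was higher, at 10.9 against 5.43 and 11.3. Those widths and folds belong to the values that chose the regions and are given as a description.

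NANOG was listed at fewer of these regions at each later time. At 4 h the 2 lists held 43.9% and 42.4% of the 5551 regions (2439 and 2353), and at 8 h 6.61% and 4.81% (367 and 267). Bare regions stood at 5.13% and 5.14% at 4 h and at 0.593% and 0.169% at 8 h, and pre-occupied regions at 61.4% and 60.5%, then 14.0% and 10.9%. The NANOG-gaining regions thus lay between both classes in each of the 4 lists. Peaks in both lists were found at 1726 regions at 4 h, 31.1% against 15.1% of all GATA6 2 h regions, and at 112 regions at 8 h, 2.02% against 1.07%. At 2 h all 5551 held NANOG in both lists by the rule, against 36.7% of all regions.

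The NANOG folds of these regions were lower than those of pre-occupied regions at 2 h. Their median at 2 h was 7.78 and 5.85 in the 2 lists, against 12.1 and 8.55 in pre-occupied regions, and the regions still listed at 4 h had medians of 6.43 and 6.20, against 5.11 and 5.22 for the regions still listed at 8 h. These later medians cover only the regions with a peak. The 4 highest NANOG 2 h folds among the 112 regions listed in both 8 h lists were the chr16, Hk2 and Scara3 regions above and an intergenic region 94822 bp from Mon2 (chr10:122981111-122982232), with 26.4-fold and 18.4-fold at 2 h and 5.22-fold and 4.35-fold at 8 h.

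SOX2, which the rule kept absent from these regions at 0 h, was listed at most of them after induction. The 2 lists held 51.8% and 75.2% at 2 h (2877 and 4172 regions), 78.8% and 59.4% at 4 h, and 35.7% and 32.7% at 8 h. The 2 h lists differed by 23.3 percentage points and had unequal lengths, 24073 and 52574 peaks, and the shares at 2 h and 4 h overlapped. Bare regions held SOX2 at 6.73% and 19.7%, 28.1% and 11.1%, and 7.84% and 6.58% at the same times. Each SOX2 list therefore covered a higher share of NANOG-gaining than of bare regions.

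SOX2 was in both lists at 2662 regions at 2 h (48.0% against 33.3% of all GATA6 2 h regions), at 3114 at 4 h (56.1% against 35.6%) and at 1365 at 8 h (24.6% against 14.9%). In all, 3815 regions (68.7%) held both SOX2 lists of at least 1 time, and 874 (15.7%) held both lists at 2, 4 and 8 h, compared with 0.223% of bare and 36.3% of pre-occupied regions. Only 447 (8.05%) held no SOX2 peak in any list from 2 to 8 h, compared with 55.7% of bare regions. These combined counts were not made over all GATA6 2 h regions. The 68.7% was not counted in the other classes either, so how far it lies above background is not known. The 2 h to 8 h difference was −29.3 percentage points, which did not pass the exact permutation test over the 6 lists (p = 0.133, where 0.067 is the smallest value 90 arrangements allow).

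GATA6 itself was listed at 84.8% and 89.2% of the NANOG-gaining regions at 4 h, at 60.7% and 62.3% at 8 h and at 13.0% and 15.2% at 48 h. At 0 h the lists held 0 and 8 of the 5551. The 3 later times did not overlap, and the mean was 87.0% ± 3.10 (SD, n = 2) at 4 h and 14.1% ± 1.55 (SD, n = 2) at 48 h, a difference of −72.9 percentage points. With the times of the sample records in place of the peak names the direction reverses, to 47.4. The exact permutation test over the 6 lists gave p = 0.067, the smallest it can give, so no set of 6 lists in this layout could pass 0.05. Both lists held a peak at 4535 regions at 4 h (81.7% against 63.8% of all regions), at 3091 at 8 h (55.7% against 38%) and at 613 at 48 h (11.0% against 5.71%). Background percentages of this kind include the NANOG-gaining regions themselves.

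The PrE factors profiled at 24 h were found at a minority of these regions. GATA4 was listed at 15.3% and 10.8%, and in both lists at 521 regions (9.39% against 5.55% of all regions). SOX17 was listed at 26.8% and 35.2%, and in both lists at 1341 (24.2% against 25.1% of all). The GATA4 share was therefore above the background and the SOX17 share near it. Bare regions held GATA4 at 7.77% and 4.63% and SOX17 at 13.3% and 19.6%, and pre-occupied regions held GATA4 at 12.6% and 8.09% and SOX17 at 45.3% and 54.4%.

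**Figure D1:**
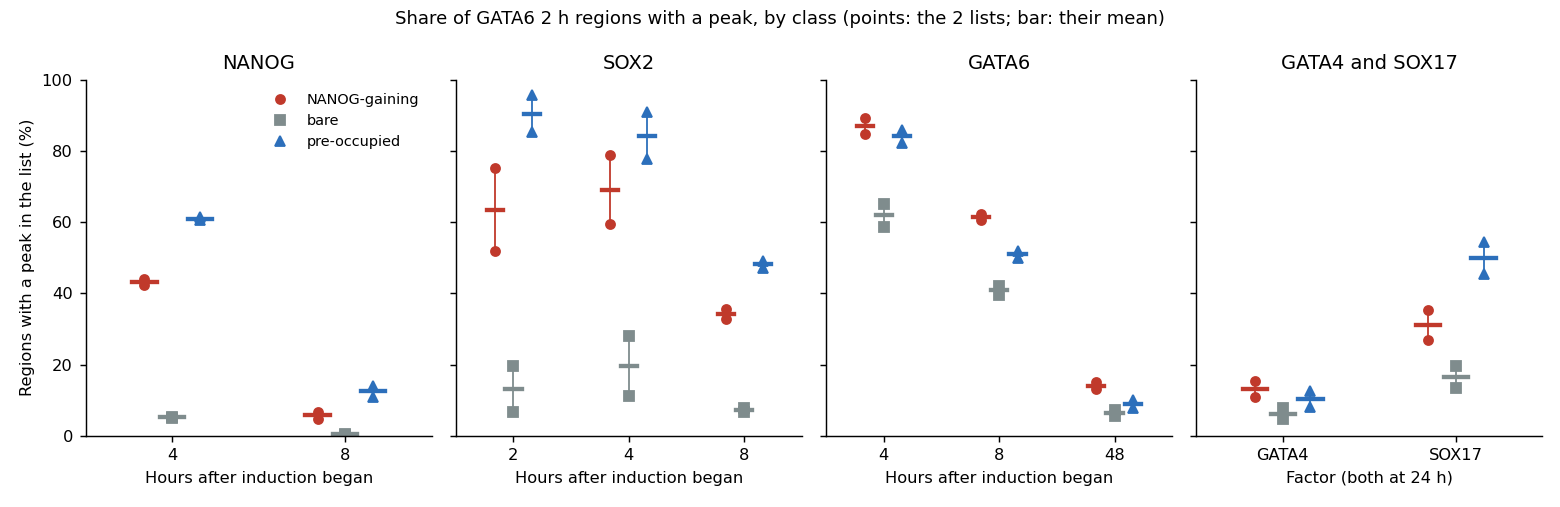
Percent of regions with a peak, one point per list, for each factor and hour after induction and for the NANOG-gaining (5551), bare (12994) and pre-occupied (4968) regions. NANOG on NANOG-gaining regions is at 43.9% and 42.4% at 4 h and at 6.61% and 4.81% at 8 h, between the other classes, while GATA6 on them is above the bare regions at each time after 2 h.

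The classes were then compared in lists that the rule had not used. Over the 10 NANOG 4 and 8 h and SOX2 2, 4 and 8 h lists, NANOG-gaining regions held a peak more often than bare regions, 43.1% against 9.11% on average. The difference was 34.0 ± 17.8 percentage points (SD, n = 10 lists), from 4.64 to 55.4, and higher in 10 of 10 lists (exact two-sided sign-flip permutation test, p = 0.00195, the smallest it can give, Benjamini-Hochberg adjusted p = 0.0026 over 4 tests). Compared with pre-occupied regions, which averaged 59.3%, they held these peaks less often, by −16.1 ± 7.71 percentage points, lower in 10 of 10 lists (exact permutation p = 0.00195, adjusted p = 0.0026). Without NANOG 2 h replicate 2, which let in 11957 regions, these 2 differences were 21.9 and −27.7, both at the same exact permutation p. The pre-occupied class was chosen for NANOG and SOX2 at 0 h, so its level of the same factors started higher by choice. NANOG-gaining and bare regions were likewise chosen to differ in NANOG at 2 h, so their levels of that factor started apart by choice. Their median GATA6 2 h folds also differed, at 10.9 against 5.43. The difference from bare regions in later lists is therefore no independent support for the rule. With NANOG 0 and 2 h lists cut to the same 10693 strongest peaks, which left 1745 NANOG-gaining regions, the difference from pre-occupied regions was −0.0288 percentage points (exact permutation p = 0.984).

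Over the 10 GATA6 4, 8 and 48 h, GATA4 and SOX17 lists, NANOG-gaining regions again exceeded bare regions, 41.3% against 26.4%. The difference was 15.0 ± 7.60 percentage points (SD, n = 10 lists), in 10 of 10 lists (exact permutation p = 0.00195, adjusted p = 0.0026). Within 5 bins of GATA6 2 h fold it was 0.754 percentage points (exact permutation p = 0.680), a mean over lists that went both ways, from −9.06 for GATA6 at 8 h to 9.15 for SOX17. With the strongest 10000 peaks of each list it was 4.38, and without NANOG 2 h replicate 2, GATA6 2 h replicate 1 or GATA6 2 h replicate 2 it was 9.86, 25.3 or 25.0 at the same exact permutation p. In the same bins of GATA6 fold the NANOG and SOX2 lists differed by 25.4 percentage points (exact permutation p = 0.00195). The bins did not equalise fold. The highest held 2983 NANOG-gaining regions with a median fold of 16.2 and 726 bare regions with a median of 12.0. The 2 classes were also chosen to differ in NANOG at 2 h, so the binned difference is no independent support for the rule. Against pre-occupied regions the PrE factor lists differed by 0.511 ± 10.6 percentage points, higher in 8 of 10 lists (exact permutation p = 0.887, adjusted p = 0.887).

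Within that last comparison the factors did not go the same way. Relative to pre-occupied regions, GATA6 stood 2.98 percentage points higher at 4 h, 10.6 at 8 h and 5.19 at 48 h, GATA4 stood 2.67 higher, and SOX17 differed by −18.8 (means of 2 lists each). Over the 8 GATA6 and GATA4 lists alone, a choice made after these values were seen, the difference was 5.35 percentage points, a value with no test because the lists were kept for their sign. Counting each group's mean as 1 value leaves 5 values for a test and a smallest exact permutation p of 0.0625, so none of the 4 comparisons could pass 0.05 in that form. The 2 lists of a group share an antibody and time point.

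**Figure D2:**
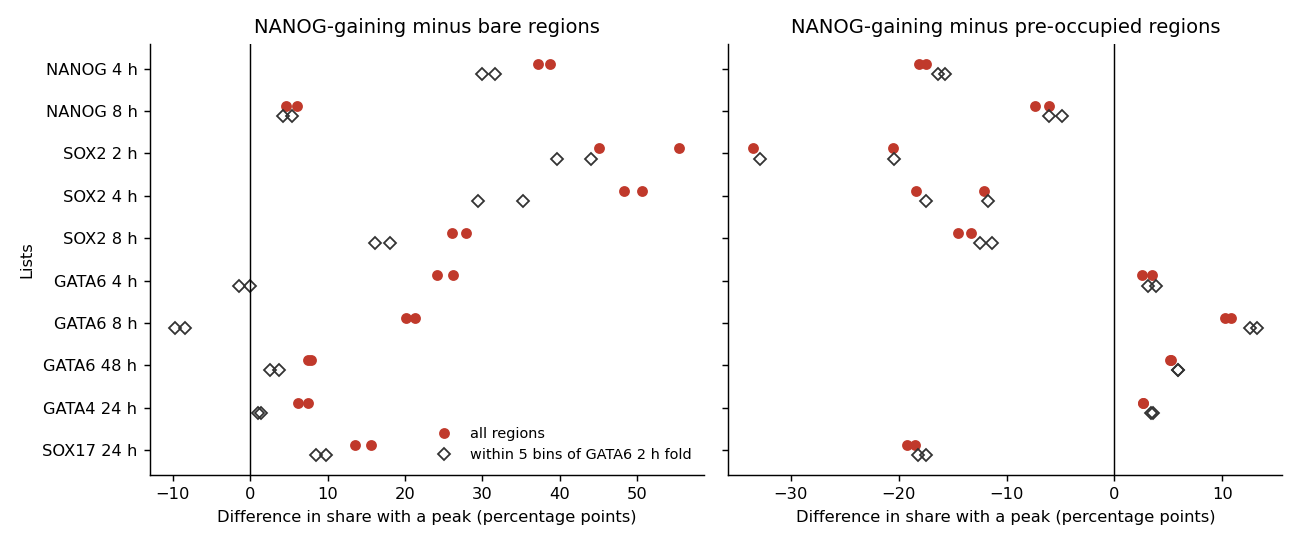
Difference in the percent of regions with a peak, NANOG-gaining minus bare and NANOG-gaining minus pre-occupied, per factor and hour in percentage points, one filled point per list for all regions and one open diamond per list within 5 bins of GATA6 2 h fold. Every filled point against bare regions is above 0, the GATA6 4 and 8 h diamonds are below 0, and against pre-occupied regions GATA6 and GATA4 are above 0 while NANOG, SOX2 and SOX17 are below it.

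Regions with stronger GATA6 at 2 h held a peak of each later list more often. The NANOG-gaining regions were split into 5 bins of about equal number by their mean GATA6 2 h fold, whose median went from 5.61 in the lowest bin to 25.1 in the highest. NANOG at 4 h went from 15.0% and 15.3% of the lowest bin to 77.7% and 78.8% of the highest, and at 8 h from 0.991% and 0.541% to 19.5% and 14.5%. SOX2 at 8 h went from 9.46% and 7.75% to 72.4% and 71.4%, and at 2 h from 32.3% and 57.2% to 76.5% and 91.3%. The PrE side followed the same order, with GATA6 at 48 h going from 3.96% and 4.23% to 30.2% and 33.5%, GATA4 from 4.95% and 2.52% to 34.6% and 26.0%, and SOX17 from 14.5% and 22.7% to 45.2% and 53.9%. GATA6 2 h fold and region width had a Spearman correlation of 0.643 across the 5551 regions, and the part of width in these shares was not tested.

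Split instead by NANOG 2 h fold, with medians of 4.53 in the lowest and 11.4 in the highest bin, only part of the picture stayed. NANOG at 4 h went from 23.2% and 23.4% to 74.6% and 73.3%. SOX17 stood at 30.2% and 38.5% in the lowest bin and 29.9% and 38.2% in the highest, and GATA4 at 18.6% and 12.3% and then 17.4% and 12.8%. GATA6 at 48 h stood at 14.2% and 16.2% in the lowest bin, 9.98% and 11.4% in the middle one and 17.1% and 20.0% in the highest. The late PrE factor shares thus differed far less between these outer bins than between those by GATA6 fold.

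Across the 5551 regions the GATA6 and NANOG 2 h folds had a Spearman correlation of 0.453, against 0.584 in 4444 pre-occupied regions. Both replicates of GATA6 correlated at 0.853 and those of NANOG at 0.570. Region width and NANOG fold correlated at 0.219. The points share libraries, local background and width, and a fold must pass the peak threshold to be included, so these are descriptions.

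**Figure D3:**
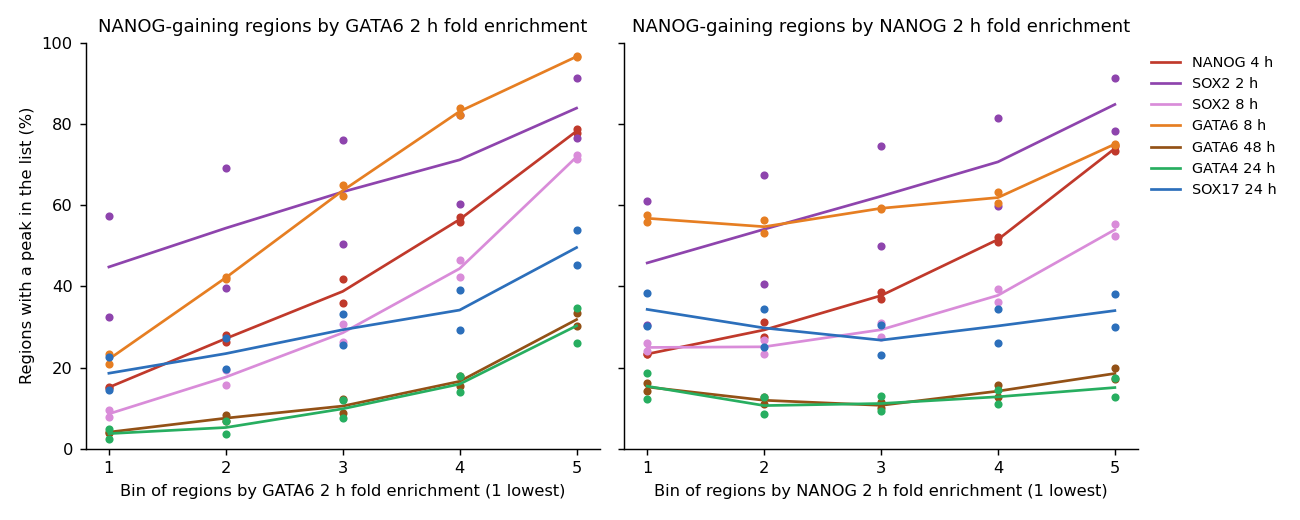
Percent of NANOG-gaining regions with a peak in each of 5 bins by GATA6 2 h fold and by NANOG 2 h fold, with points for each list and a line through their mean for each factor and time. By GATA6 fold NANOG 4 h goes from 15.0% and 15.3% to 77.7% and 78.8%, and by NANOG fold SOX17 begins at 30.2% and 38.5% and ends at 29.9% and 38.2%.

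Peaks of different factors fell on the same NANOG-gaining regions. The 613 regions with GATA6 in both 48 h lists held SOX17 in both lists at 88.1%, GATA4 at 58.6%, SOX2 at 8 h at 73.9% and NANOG at 4 h at 62.8%. The 4596 regions with GATA6 in neither 48 h list held them at 12.9%, 2.13%, 16.3% and 25.8%. Regions with GATA6 at 48 h thus held NANOG at 4 h and SOX2 at 8 h more often than those without. NANOG at 8 h followed, with 7.01% against 1.09%. All of these shares go up with GATA6 2 h fold, as the bins by fold show, and were not separated from it. The coincidence of GATA6 at 48 h with SOX17 was not particular to these regions. Both SOX17 lists were held by 302 of the 308 pre-occupied and 408 of the 580 bare regions with GATA6 in both 48 h lists. The other pairs here, and NANOG with SOX2 below, were not counted outside the NANOG-gaining regions.

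NANOG and SOX2 also coincided. NANOG was in both 4 h lists at 44.2% of the regions with SOX2 in both 4 h lists and at 10.5% of those with SOX2 in neither, and the 8 h values were 7.25% and 0.160%. At 1632 regions (29.4%) NANOG was in neither 4 h list although GATA6 was in both. The share of this combination over all GATA6 2 h regions was not counted, so it is not a trait of these regions. Taken alone, NANOG was in neither 4 h list at 44.8% of them against 68.2% of all regions. GATA6 was in both 4 h lists at 81.7% against 63.8%. GATA6 was in both lists of 4, 8 and 48 h at 594 regions (10.7%), compared with 3.72% of bare and 5.94% of pre-occupied regions, and in no list from 4 to 48 h at 408 (7.35%, compared with 24.3% and 9.86%). Both lists of GATA6 at 48 h, GATA4 and SOX17 came together at 341 regions (6.14%, compared with 1.75% and 3.40%), whereas 3292 (59.3%, compared with 73.8% and 42.9%) held no peak in any list of the 3 groups. The shares of these combinations of times and of PrE factors over all GATA6 2 h regions were not counted.

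Summits of NANOG and GATA6 lay close together. The median distance between them at 2 h was 77 and 76 bp in replicates 1 and 2, compared with 52 bp between both GATA6 replicates and 63 bp between both NANOG replicates. NANOG and SOX2 summits at 2 h were 65 and 68 bp apart. In pre-occupied regions the NANOG to GATA6 distance was 80 and 78 bp, so the spacing in the NANOG-gaining regions was within 3 bp of that.

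Short words known to be bound by the factors were counted in each class. Within 100 bp of the GATA6 2 h summit, taken from the list with the higher −log10 q, 66.5% held at least 1 GATA word, compared with 63.6% of bare, 39.9% of pre-occupied and 54.1% of all GATA6 2 h regions and 34.3% of windows 2 kb away. The word AGATAA alone was in 40.5%, compared with 38.3%, 15.4%, 29.8% and 12.3%. So GATA words were about as frequent as in bare regions and more frequent than in pre-occupied ones. The small excess over bare regions, 2.92 percentage points (95% interval 1.43 to 4.41, over regions), was −2.97 when only 50 bp on either side were read, and inside every one of the 5 bins of GATA6 fold the NANOG-gaining regions were lower than bare ones, at 44.7% against 56.0% in the lowest and 72.7% against 73.1% in the highest.

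The AP-1 word TGANTCA, bound by FOS and JUN dimers, differed more. It was in 24.5% of NANOG-gaining windows (Wilson 95% interval 23.4 to 25.6), compared with 13.8% of bare (13.2 to 14.4), 19.8% of regions with NANOG in 1 list, 9.30% of pre-occupied, 14.6% of all regions and 6.40% of the windows 2 kb away. The share was higher than in bare regions in all 5 bins of GATA6 fold, from 22.1% against 12.8% in the lowest to 22.8% against 13.9% in the highest. These intervals treat regions as independent and cover counting error only. No AP-1 factor was profiled in the lists used here.

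Words of the pluripotency factors differed from bare regions by fewer percentage points than the AP-1 word. For the rare octamer and composite words this does not mean a smaller relative excess. The SOX word CNTTGT was in 47.9% of NANOG-gaining, 40.1% of bare, 55.2% of pre-occupied and 44.8% of all windows. The octamer ATGCNAAT was in 5.55%, 3.80%, 7.43% and 5.43%, and the SOX-octamer composite, with up to 3 mismatches, in 2.56%, 1.46%, 5.41% and 2.63%. TAATGG was in 10.1%, 6.77%, 9.14% and 7.85%. In the windows 2 kb away the SOX word was in 36.9%, the octamer in 2.59%, the composite in 0.973% and TAATGG in 8.20%. For TAATGG the bare regions were therefore below those windows. For the octamer and the composite the NANOG-gaining regions were near the level of all regions and below the pre-occupied class.

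A further 3 words were searched. The nuclear-receptor word AAGGTCA, bound by ESRRB among others, was in 6.92% of NANOG-gaining, 7.45% of bare, 10.6% of pre-occupied and 7.77% of all windows. The TEAD word GGAATG was in 16.4%, 13.6%, 16.6% and 15.2%, and the KLF word GGGNGTGG in 11.5%, 11.5%, 12.2% and 12.8%. The AAGGTCA share was highest in pre-occupied regions, and neither of the other words was more frequent in NANOG-gaining than in pre-occupied regions. All words were searched on both strands, the words of different factors may overlap, and a match does not show that a factor was bound.

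GATA words were dense across the NANOG summit and on both flanks of the GATA6 summit. Within 40 bp of the NANOG summit NANOG-gaining regions held 7.40 GATA words per kb, compared with 2.77 at 400 to 500 bp. Within 40 bp of the GATA6 summit they held 3.87, and bare regions held 4.91, but 90 bp to its left the densities were 8.85 and 9.20 per kb. The dip at the centre of the GATA6 peaks was therefore present in both classes, and the choice of summit and window decides how a GATA word share compares between them. In pre-occupied regions the density about the NANOG summit was 2.48, close to that at their edges, 2.01. A GATA word lay within 25 bp of the NANOG summit in 28.0% of NANOG-gaining and 10.9% of pre-occupied regions. AP-1 words were also dense about the NANOG summit, with 2.15 words per kb within 40 bp against 0.415 at the edge. In pre-occupied regions these values were 0.618 and 0.332. An AP-1 word lay within 25 bp of the NANOG summit in 11.4% of NANOG-gaining and 3.07% of pre-occupied regions. About the GATA6 summit of NANOG-gaining regions AP-1 words did not dip, at 1.54 per kb within 40 bp and 1.30 at 90 bp to its left.

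**Figure D4:**
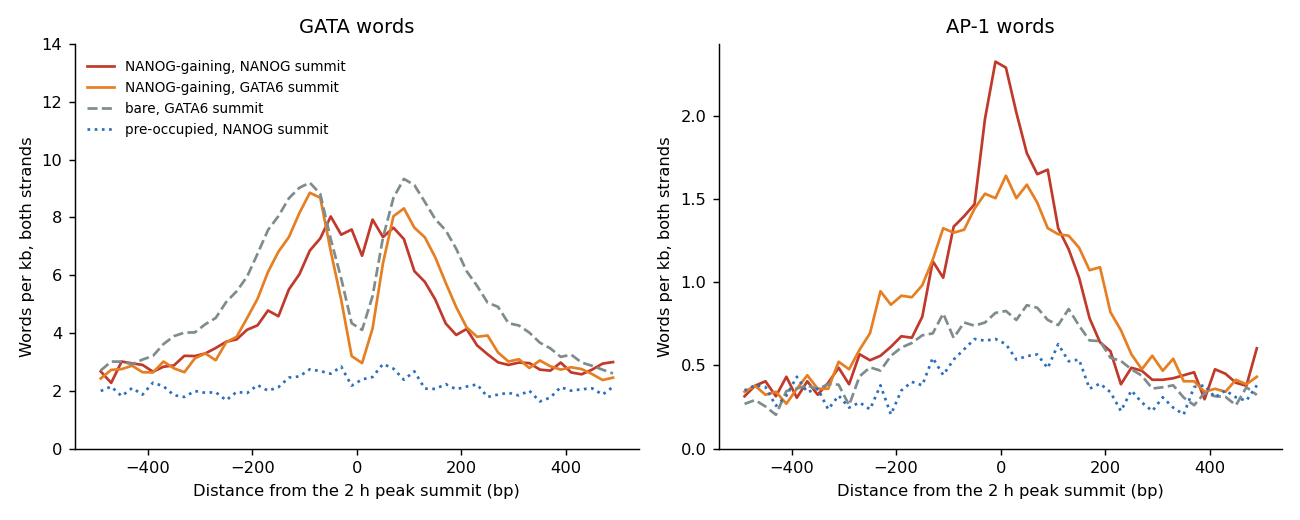
Words per kb against distance in bp from the summit, for GATA and AP-1 words, about the NANOG and the GATA6 summit in the region classes. In NANOG-gaining regions GATA words run at 7.40 per kb within 40 bp of the NANOG summit, and about the GATA6 summit they dip to 3.87 between flanks that reach 8.85.

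Regions with an AP-1 word, 1360 of the 5551, held SOX2 more often at 2 h and every factor less often at 8 h and later than the 4191 without. SOX2 was in both 2 h lists at 65.1% of them against 42.4%, and in both 4 h lists at 61.3% against 54.4%, but in both 8 h lists at 17.7% against 26.8%. NANOG was in both 4 h lists at 20.9% against 34.4% and in both 8 h lists at 0.809% against 2.41%. GATA6 was in both lists at 74.4% against 84.1% at 4 h, 39.1% against 61.1% at 8 h and 4.71% against 13.1% at 48 h. The late PrE factors went the same way, GATA4 at 3.24% against 11.4% and SOX17 at 15.3% against 27%. The median 2 h folds of both groups were near each other, 10.3 against 11.0 for GATA6 and 7.18 against 6.64 for NANOG. They were not alike in GATA words, which 795 of the 1360 regions with an AP-1 word held, compared with 3694 of all 5551. The part of GATA words in these shares was not tested.

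GATA words went with higher shares of most factors. The 3694 regions with a GATA word held GATA6 in both 8 h lists at 62.8% against 41.6% of the 1857 without, NANOG at 4 h at 35.8% against 21.8%, and GATA4 at 11.0% against 6.19%, while SOX2 at 2 h was lower, 45.9% against 52.0%. SOX2 at 4 h was higher, 58.3% against 51.7%, as it was with an AP-1 word. With 0, 1, 2, 3 and 4 or more words, NANOG at 4 h stood at 21.8%, 26.8%, 41.5%, 51.6% and 63.4%, and GATA6 at 8 h at 41.6%, 52.8%, 69.2%, 82.0% and 90.3%. GATA6 at 48 h stood at 6.84%, 9.91%, 16.2%, 22.3% and 10.2%, so the 186 regions with the most words fell out of that order. The GATA6 2 h fold was also higher with a word, at 11.6 against 9.29, and the part of fold in these shares was not tested.

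A SOX word, held by 2661 regions, went with smaller differences, SOX2 at 2 h at 51.6% against 44.6% and SOX17 at 27.1% against 21.5%. GATA and AP-1 words were both present in 795 regions (14.3%), and 712 (12.8%) held none of the GATA, AP-1, SOX and composite words. Neither combination was counted in the other classes or over all GATA6 2 h regions, so neither is a trait of these regions. The median GC content of the windows was 45.3%, compared with 47.3% in bare and 45.8% in pre-occupied regions, and 11.2% were mostly repeat-masked, compared with 14.6% and 24.8%.

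**Figure D5:**
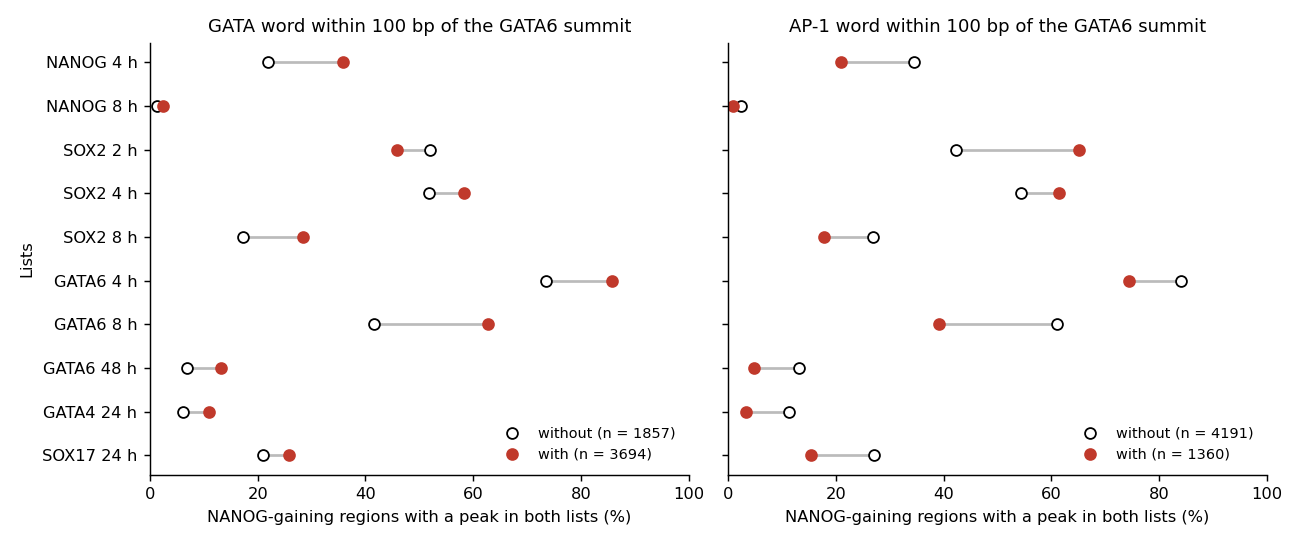
Percent of NANOG-gaining regions with a peak in both lists of each factor and time, for regions with and without an AP-1 word (1360 and 4191) and with and without a GATA word (3694 and 1857). With an AP-1 word SOX2 at 2 h is higher, 65.1% against 42.4%, and GATA6 at 8 h is lower, 39.1% against 61.1%.

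The NANOG-gaining regions lay mostly far from promoters. Each region was placed by its GATA6 summit in the GENCODE annotation. The summit lay within 1000 bp of a protein-coding start in 155 (2.79%), and 156 (2.81%) were exonic, 2880 (51.9%) intronic and 2360 (42.5%) intergenic. Promoters made up 6.30% of bare, 6.22% of pre-occupied and 9.49% of all GATA6 2 h regions. The median distance to the nearest protein-coding start was 40042 bp, compared with 28482.5 and 38235 bp, and 2453 (44.2%) lay beyond 50 kb, compared with 36.3% and 43.6%. Promoter regions held NANOG in both 4 h lists at 13.5% and SOX2 in both 2 h lists at 26.5%, below the intronic (30.1% and 47.2%) and intergenic ones (33.9% and 50.8%). Their SOX17 share was higher, 38.7% against 23.7% and 23.8%.

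Of 21924 protein-coding genes, 4599 (21.0%) had a NANOG-gaining region within 50 kb of a start. The gene lists below were counted against that share and against the 12.4% of all GATA6 2 h regions that gain NANOG. A region near a gene need not act on it, and no expression was measured here.

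Among 11 PrE regulators, 4 had such a region (Foxa2, Gata6, Gata4 and Sox7), with 7 of 37 nearby GATA6 regions (18.9%). Foxa2, a forkhead factor of endoderm, had 2, the stronger 6060 bp downstream at chr2:148040349-148041412 with NANOG 2 h folds of 8.18 and 7.31 and GATA6 folds of 24.9 and 18.4. It held GATA6 at 48 h, GATA4 and SOX17 in both lists and NANOG in no list at 4 or 8 h. Gata6 itself had 2, the stronger 47655 bp upstream of a start, with NANOG at 9.39-fold and 5.12-fold and both lists of every later group. Gata4 had 2, the stronger in an intron (chr14:63221361-63222493) with NANOG at 5.12-fold and 5.40-fold. It lay 49923 bp downstream of the Gata4 start, near the 50 kb limit, and its nearest start was that of Neil2. Sox7 had 1.

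Of 18 PrE signalling and receptor genes, 11 had one, with 19 of 117 regions (16.2%). Pdgfra, the PDGF receptor that marks PrE cells, had 3, and the strongest (chr5:75136811-75139152, 14273 bp from a start) had NANOG at 12.6-fold and 3.62-fold, both lists of SOX2 and GATA6 at each later time and of GATA4 and SOX17, and no NANOG at 4 or 8 h. Cer1, a secreted inhibitor of Nodal and BMP, had 2, one 1043 bp upstream (chr4:82885632-82886880) with NANOG at 10.4-fold and 10.3-fold and NANOG again in both 4 h lists. Lifr, the LIF receptor subunit, had 3, and the strongest (chr15:7057309-7058198, NANOG at 9.94-fold and 6.27-fold) held neither GATA4 nor SOX17.

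Of 12 basement membrane genes, 8 had one, with 13 of 98 regions (13.3%). Lamb1, a laminin chain of the membrane that PrE cells lay down, had 2, and the region 35754 bp upstream (chr12:31228801-31230096) held NANOG at 12.6-fold and 13.6-fold, GATA6 at 51.4-fold and 55.6-fold and both lists of every later group. That region had 3 GATA words within 100 bp of its GATA6 summit, and its nearest start was that of Gm6993. Lama1 had 2, the stronger at chr17:67653855-67654949 with NANOG at 12.1-fold and 11.8-fold and every group but NANOG at 8 h. The nearest start to that region was that of Lrrc30. Col4a1 and Col4a2, neighbouring collagen IV genes, shared a region at chr8:11265860-11266747 with NANOG at 14.6-fold and 8.31-fold. Lamc1 had 4 of 28 regions, the strongest (chr1:153300093-153301710) with NANOG at 19.1-fold and 8.64-fold and no GATA6 at 48 h.

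Of 18 Epi regulators, 8 had one, with 17 of 168 regions (10.1%), and Nanog, Sox2 and Pou5f1 had none among 12, 8 and 9 nearby GATA6 regions. Klf5, a Kruppel-like factor of ES cell self-renewal, had 4 of 23, and the strongest, 23238 bp upstream (chr14:99274625-99276015), held NANOG at 13.9-fold and 10.1-fold and GATA6 at 58.8-fold and 45.2-fold. Every later group was in both lists there except GATA4, in 1 of its lists. Mycn also had 4, the strongest at chr12:12902308-12903136 with NANOG at 10.4-fold and 7.20-fold and none at 4 or 8 h. Tbx3 had 3, and Esrrb, a nuclear receptor of the naive state, had 2, the stronger at chr12:86398422-86399769 with NANOG at 13.8-fold and 13.5-fold. It held SOX2 in every later list, no NANOG at 4 or 8 h and no GATA word within 100 bp of its GATA6 summit.

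Of 17 Epi signalling genes, 7 had one, with 8 of 110 regions (7.27%). The strongest was 31527 bp upstream of Spp1, which encodes osteopontin (chr5:104403323-104403967), with NANOG at 16.0-fold and 12.6-fold. Of 12 trophectoderm regulators, 5 had one, with 9 of 94 regions (9.57%), and Elf5 had 3, the strongest at chr2:103405467-103407480 with NANOG at 12.8-fold and 9.79-fold. Of 12 later germ layer regulators, only Mesp1 and Gsc had one, with 2 of 30 regions (6.67%). By regions, both PrE lists were above 12.4%, basement membrane genes were near it at 13.3%, and the other 4 lists were below it. These shares rest on counts of 2 to 19 regions and have no test. They also include regions that the 0 h condition barred. Pre-occupied regions were 31 of 168, 21 of 110, 9 of 94 and 8 of 30 near the Epi regulator, Epi signalling, trophectoderm and later germ layer lists. Near the PrE regulator, PrE signalling and basement membrane lists they were 1 of 37, 14 of 117 and 9 of 98. The order of the lists may therefore reflect that condition, which was not tested. By genes the order differed, since 44.4% of Epi regulators, 41.2% of Epi signalling genes and 41.7% of trophectoderm regulators had such a region, above the 36.4% of PrE regulators. The PrE signalling and basement membrane lists stood at 61.1% and 66.7% of genes, and of the 7 lists only the later germ layer regulators, at 16.7%, were below 21.0%.

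The genes with the most NANOG-gaining regions within 50 kb were on none of these lists. Gabarapl2 and its neighbour Tmem231 shared 7 of 17 nearby GATA6 regions, the strongest at chr8:111936594-111938392 with NANOG at 11.9-fold and 10.3-fold. Gabarapl2 encodes an ATG8-family protein of autophagy, and Tmem231 a protein of the ciliary transition zone. Slc25a13, a mitochondrial aspartate-glutamate carrier, had 5 of 19, the strongest at chr6:6206897-6209095 with NANOG at 14.6-fold and 10.8-fold. Chn2, and the neighbours Rasl11a and Rpl21, also had 5.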

How the data were processed

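CUT&RUN and CUT&TAG were profiled by the authors in 57 samples, of which 30 CUT&RUN samples had peak lists used here (15 groups of 2). The other 27 (histone marks, control antibody, blastocysts) were not analysed here. Reads were aligned to mm10 (GRCm38). The submitters' notes name Bowtie2, SAMtools and Picard. Duplicates were kept, blacklisted intervals removed, and MACS peaks called per library in narrow mode against a rabbit anti-rabbit control. The deposited columns used were the fold enrichment (a ratio over local background), −log10 p and −log10 q. The score column of the deposited lists was not used here. All peaks had −log10 q of 1.30 or more. Depth was estimated as background coverage, in fragments per base, from which whole pileups give the listed pairs of fold and p.

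Regions were merged GATA6 2 h peaks, and 1 bp of overlap counted as shared. The units of the tests were lists, in exact two-sided sign-flip or arrangement permutation tests (threshold 0.05), tested on simulated data. A class's share in a list was the percent of its regions with a peak. Words were searched in GRCm38.p6 about summits, and genes came from GENCODE vM21. Python 3.11.15, numpy 2.4.6, pandas 2.3.3, scipy 1.17.1, statsmodels 0.14.6, pysam 0.24.0 and matplotlib 3.10.9 were used. Alternatives were stricter or equal list lengths, other overlap rules, bins of GATA6 fold, left-out lists and a replicate block. Named regions were those with the highest NANOG 2 h fold outside chromosome 18 (8 of all, 4 among those in both 8 h lists and 4 among those with late PrE factors) and 3 on each side of the threshold. Up to 6 genes with the most regions were taken per list and over the annotation, and those with the clearest place in a list are described. The regions, classes and gene lists were chosen with earlier results of these data known.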

Additional observations from a re-analysis of the deposited data

Results flagged for a closer look

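The PrE factor lists did not all move one way in 2 comparisons. Each value below is the mean of 2 lists in percentage points of regions with a peak, and the 2 lists of a factor had the same sign. The differences between factors were not tested.

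Against pre-occupied regions, NANOG-gaining regions held GATA6 more often, with a difference of 2.98 for the 4 h lists, 10.6 for those of 8 h and 5.19 for those of 48 h. GATA4 at 24 h differed by 2.67. SOX17, profiled at the same 24 h as GATA4, differed by −18.8.

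Against bare regions within 5 bins of GATA6 2 h fold, NANOG-gaining regions held SOX17 more often, by 9.15, GATA6 at 48 h by 3.16 and GATA4 by 1.21. GATA6 at 4 h and 8 h differed by −0.696 and −9.06, and 1 of the 4 h lists was at −0.0106. Without the bins these 5 values were all above 0.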

How the results depend on the processing

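The number of NANOG-gaining regions was 1421 from the 10000 strongest peaks of each list and 1745 with NANOG lists of equal length. Leaving out 1 list of the rule gave 5690 to 11957, the highest without NANOG 2 h replicate 2. Leave-one-out differences, in percentage points, were 21.9 to 37.5 (pluripotency lists against bare regions), 9.86 to 25.3 (PrE lists against bare), −27.7 to −12.7 (pluripotency lists against pre-occupied) and −4.34 to 2.70 (PrE lists against pre-occupied). The last also changed sign, to −0.407, when a summit had to lie in the region, and was 5.35 over the GATA6 and GATA4 lists alone. The first 3 lost the threshold as 5 group means (34.0, 15.0 and −16.1, exact permutation p = 0.0625), since 5 values cannot pass it. That setting and the GATA lists alone were chosen after seeing the data. PrE lists against bare regions stood at 0.754 in bins of GATA6 fold, and pluripotency lists against pre-occupied regions at −0.0288 with equal NANOG lists. The cause of these changes was not tested.

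Over time, leave-one-out ranges were −40.9 to −17.6 for SOX2 and −75.1 to −70.7 for GATA6. GATA6 by sample record instead of peak name reversed, to 47.4. With a replicate block the SOX2 and GATA6 values stayed at −29.3 and −72.9 (exact permutation p = 0.333 and 0.167). Replicate 1 was above replicate 2 in 5 of 10 groups, and whether equal numbers share a culture or batch is not known. The GATA word difference was −2.97 within 50 bp and 7.49 about the NANOG summit. List length limits every share.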
